A study of Mus musculus with 151 samples.

Results

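The mitochondrially encoded genes were followed by name through all 7 gene count tables of the study. Mitochondrial DNA carries 13 protein-coding genes, and the 8 chosen by name were COX1, CYTB, ND1, ND2, ND3, ND4, ND5 and ND6. All 8 were found in every table, among 35976 gene names per table. The tables covered female mice conceived naturally (Natural) or by in vitro fertilization (IVF), in both groups from CF-1 mothers and B6/SJL sires. IVF embryos came from superovulated mothers, were cultured to the blastocyst and were transferred to pseudopregnant CF-1 females. Adult offspring of both groups had been delivered by cesarean section and fostered. Whole ovaries came from fetuses of E18.5 (4 Natural, 6 IVF) and from adults aged 12 weeks (4, 5) or 39 weeks (5, 5), as stranded mRNA libraries made from a whole fetal gonad or from part of an adult ovary. Low-input libraries, made with a modified SMART-seq protocol, held 100 primordial germ cells (PGCs) at E13.5 (4 and 5 libraries), cumulus cells at 12 weeks (5 and 5), and single oocytes at 12 weeks (36 and 40) and 39 weeks (9 and 10), the adult cells from females superovulated before collection.

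Respiration in mitochondria runs on complexes built from nuclear and mitochondrial genes. ND1 to ND6 encode core subunits of complex I, which takes electrons from NADH, CYTB encodes the catalytic core of complex III, and COX1 encodes the subunit of complex IV that reduces oxygen. Mitochondrial DNA is transcribed from both strands as long precursors that are cut into mature RNAs, and of the protein-coding genes ND6 alone lies on the other strand. Oocytes are known for very many copies of this genome and for a low respiratory rate before ovulation, and cumulus cells pass metabolites to the oocyte. The comparison of Natural with IVF offspring asks whether conception by IVF leaves a trace in these transcripts.

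Sequence bears on how each gene could be counted, so 2 places in it are shown first. Nuclear chromosomes hold copies of mitochondrial DNA, and a read that matches both places may be discarded or split in counting. In the mouse build GRCm38, ND3 spans chrM:9459-9806 on the plus strand (RefSeq and GENCODE annotation). The unprocessed pseudogene Gm28438, at chr1:24612775-24613119 on the minus strand, matched it at 99.7% of 345 compared bases, with 1 substitution, T3C, counted from 1 at the first base of ND3. The opening 60 bases of each are given 5′ to 3′, with the base that differs in capitals, followed by the plus strand around the end of ND5 and ND6 (chrM:13532-13585), where the 14 bases in capitals belong to both genes.
ND3, chrM:9459-9518, plus strand: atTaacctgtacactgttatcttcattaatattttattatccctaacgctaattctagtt
Gm28438, chr1:24613060-24613119, minus strand: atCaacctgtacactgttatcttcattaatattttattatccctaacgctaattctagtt
ND5-ND6 overlap, chrM:13532-13585, plus strand: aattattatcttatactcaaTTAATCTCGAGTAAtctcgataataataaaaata

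Each mitochondrial gene was cut into all its stretches of 50 bases, and these were looked up in transcripts annotated on other chromosomes. None of the stretches of ND1, ND6 or CYTB occurred there, nor did any of ATP8. For ND5 the share was 7.61% (in Gm11407 and Gm4076), and for ND2 it was 8.19% (in Gm13339). It was 51.1% for COX1, 62.2% for ND4 (in Gm28439) and 98.0% for ND3. Of the genes outside the list, COX2, ATP6, COX3 and ND4L had 98.8% to 100% of their stretches in such copies. The values of ND3, COX1 and ND4 are therefore uncertain where reads were split or dropped. How the authors treated such reads is not given in the sources used here, and the part of the copies in any value was not tested.

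ND3 was far below the other members in every library. It was read in all 9 PGC libraries at 27.1 to 93.6 CPM (the counts-per-million value, relative to the library total), from 167 to 517 reads. In 72 of the 134 other libraries it was listed at 0, and its highest value there was 10.3 CPM, with at most 16 reads in any of them. ND3 reached 0.656 CPM in ovaries and 0.976 CPM in cumulus cells. COX2, ATP8, ATP6, COX3 and ND4L together made up at most 0.00132% of counts in any library. The share of counts described next is thus almost wholly that of the other 7 members.

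**Figure D1:**
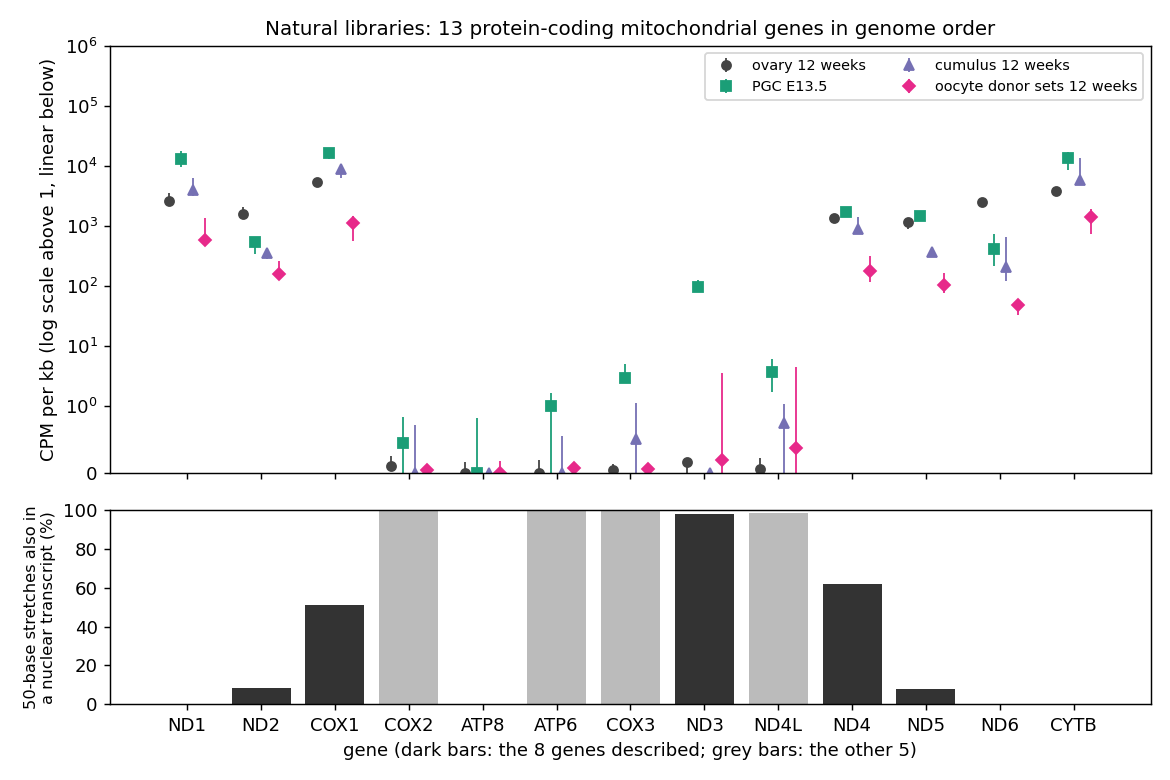
Upper panel, median CPM per kilobase of the 13 protein-coding mitochondrial genes in Natural 12-week ovaries, PGCs, cumulus cells and oocyte donor sets (log scale above 1, linear below), with bars from the lowest to the highest library. Lower panel, percentage of the 50-base stretches of each gene found in transcripts annotated off the mitochondrial chromosome. COX2, ATP6, COX3, ND3 and ND4L, with 98.0% to 100% of stretches in copies, lie far below the other members, as does ATP8, which has none.

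Per unit of length, either COX1 or CYTB had the highest median in every group. In Natural PGCs the median was 16399 CPM per kilobase for COX1, 13349 for CYTB and 13212 for ND1, against 1710 for ND4, 1465 for ND5, 544 for ND2 and 407 for ND6. In Natural 12-week ovaries COX1 stood at 5455 CPM per kilobase, CYTB at 3790, ND1 at 2618 and ND6 at 2497. In Natural donor sets of 12-week oocytes CYTB (1425) stood above COX1 (1106), and ND6 (48.6) was the lowest member other than ND3. The lower members thus changed places between kinds of sample, above all ND6.

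The strands gave the clearest difference in composition. The level of ND6 relative to ND5 per kilobase was 1.24 to 2.65 in all 29 ovaries and 0.147 to 0.877 in the 104 libraries of PGCs and single oocytes, so the ranges did not overlap. Among cumulus cells the ratio was 0.319 to 0.682 in the 6 libraries whose names carry GC and 1.27 to 1.72 in the 4 libraries named by number, with Natural and IVF libraries in both sets. The numbered libraries also held more CYTB (14021 to 17348 CPM, against 5469 to 8396) and more ND6 (273 to 375 CPM, against 59.9 to 126). Oocyte markers summed to 16.3 to 43.4 CPM in the GC libraries and 0.788 to 1.13 CPM in the numbered ones. The library set was held as a covariate in the gene tests of IVF against Natural cumulus cells, and the tests of shares did not hold it except where said. The gene tests of oocytes against cumulus cells did not hold it, so their cumulus groups average over both sets. Ovary and low-input libraries differ in protocol, and whether the counting used strand is not given, so protocol and cell type cannot be told apart in these ratios.

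The share of all counts on the 8 genes differed most between kinds of cell. PGCs, cumulus cells and 12-week oocytes are each also their own table, so kind of cell and sequencing set cannot be told apart. Library totals were 2839022 to 43363799 counts in ovaries, 4364495 to 8675189 in PGCs, 2532824 to 6345249 in cumulus cells, and 839781 to 31126357 in oocytes. Marker genes were summed in the cells they name: PGC and fetal germ cell markers to 3314 to 6656 CPM in the PGC libraries, granulosa and cumulus markers to 1489 to 3144 CPM in cumulus cells, and oocyte markers to 19489 to 32052 CPM in the 12-week oocyte donor sets. All 10 oocyte markers were called higher in oocytes than in PGCs in each group. The germ cell list did not separate these kinds: of its 10 genes 3 were lower and 2 higher in Natural oocytes, and 4 lower and 1 higher in IVF oocytes. The 76 oocytes of 12 weeks were summed into 10 donor sets read from the library names, 5 Natural and 5 IVF.

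In Natural mice the genes took 0.447% ± 0.148 of counts in 12-week oocytes (SD, n = 5 donor sets), 2.99% ± 0.546 in cumulus cells (SD, n = 5) and 5.90% ± 1.12 in PGCs (SD, n = 4). Cumulus cells stood 6.69 times above oocytes (two-sided exact permutation test, p = 0.00794, adjusted p = 0.0159 over 12 comparisons). PGCs stood 13.2 times above oocytes and 1.97 times above cumulus cells (exact permutation test, p = 0.0159 and adjusted p = 0.0212 for each). In IVF mice the shares were 0.334% ± 0.116 (n = 5), 3.20% ± 0.821 (n = 5) and 8.00% ± 4.56 (n = 5), in the same order. The IVF ratios were 9.57 for cumulus cells over oocytes, 23.9 for PGCs over oocytes and 2.50 for PGCs over cumulus cells (exact permutation test, adjusted p = 0.0159 for each). None of these groups overlapped in either conception group. In pooled cells and whole tissue, fewer cells of a type and less RNA per cell cannot be told apart.

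**Figure D2:**
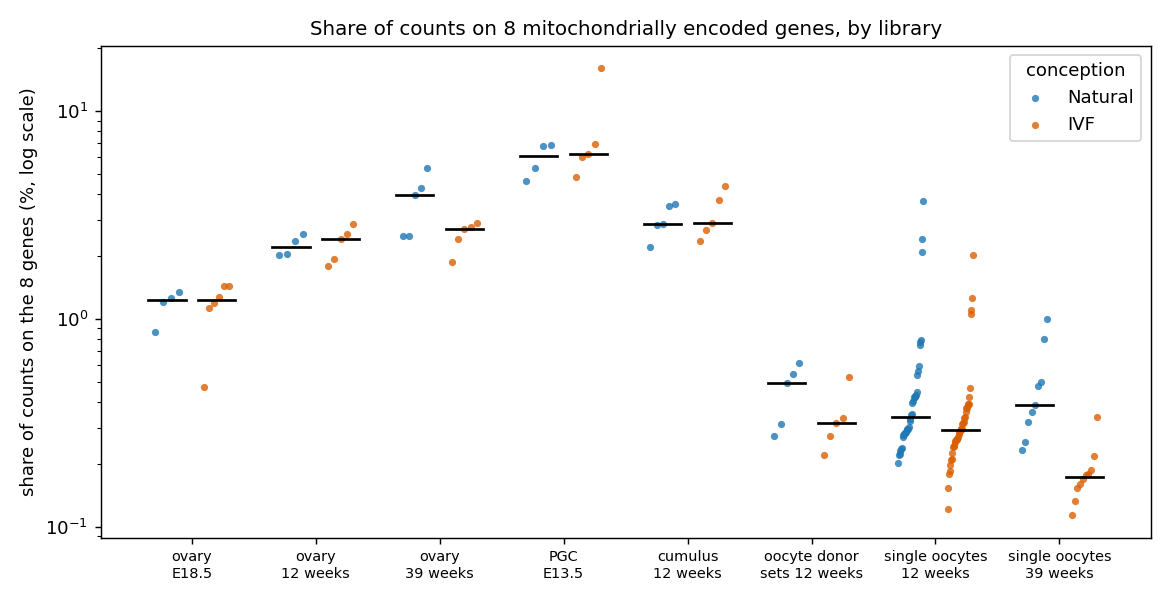
Percentage of all counts on the 8 genes in each library (log scale), with 12-week oocytes shown both as donor sets and singly, each point a library or set and each horizontal bar a group median. By group median PGCs lie highest and oocytes lowest, with single libraries of different kinds overlapping, while Natural and IVF points overlap in every kind.

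Oocytes and cumulus cells of 12 weeks were then compared gene by gene with edgeR's quasi-likelihood test over 15792 genes. In Natural mice 6 of the 7 genes other than ND3 fell in oocytes, where 37.5% of all tested genes fell. In IVF mice the count was also 6 (35.5% of all genes fell). COX1 showed the largest drop, at -2.32 ± 0.36 on the log2 scale in Natural and -3.11 ± 0.38 in IVF (SE). CYTB differed by -1.95 ± 0.40 and -2.66 ± 0.41, and ND1 by -1.88 ± 0.37 and -2.07 ± 0.37. ND5 moved least among those that fell, at -0.93 ± 0.26 and -1.08 ± 0.26 (edgeR, adjusted p = 0.0019 and 0.00046).

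ND2 stood apart from the rest of complex I. Its difference was -0.14 ± 0.28 in Natural (edgeR, adjusted p = 0.65) and -0.45 ± 0.28 in IVF (adjusted p = 0.14), although with scaling by library size alone it fell by 0.88 and 1.12. That scaling moved the median of all genes from 0.13 to -0.55 in Natural and from 0.31 to -0.31 in IVF. ND2 CPM in the Natural donor sets was 164, 246, 132, 158 and 268 in sets 35_1, 35_3, 92_3, 92_4 and 92_5. In Natural cumulus libraries it was 297, 374 and 375 in the GC libraries and 328 and 402 in the numbered ones, so on the plain CPM scale the oocyte sets lay below all of them. ND3 was at 0 in all 5 Natural cumulus libraries and between 0 and 1.23 CPM in the Natural oocyte sets. It reached 0.976 CPM in the IVF cumulus libraries. ND3 passed the filter of this fit through the PGC libraries, so its levels alone are given, with no fold or call.

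The test of whether the oocyte to cumulus difference itself depended on conception called 0 of the 7 genes other than ND3 (0.00633% of all genes). Nuclear genes of the same complexes fell too: of 57 tested nuclear subunits of complexes I, III and IV, 53 were lower in Natural oocytes and 54 in IVF oocytes. Their medians were -3.72 and -3.90 for complex I (36 genes), -5.22 and -4.98 for complex III (9 genes) and -2.79 and -2.82 for complex IV (12 genes). The median over the 7 mitochondrial genes other than ND3 was -1.88 in Natural and -2.09 in IVF. The subunits with the largest differences in Natural mice were Ndufb7 (-6.33), Ndufa7 (-5.63) and Ndufa5 (-5.61) of complex I, Uqcrc1 (-5.76), Cyc1 (-5.49) and Uqcr11 (-5.32) of complex III, and Cox4i1 (-6.97), Cox7c (-6.50) and Cox6a1 (-5.31) of complex IV. In IVF mice Ndufb7 (-7.01), Uqcrc1 (-6.33) and Cox4i1 (-7.18) led their complexes. Of 29 genes that copy mitochondrial DNA or make and process its RNA, 15 were higher in oocytes of each group (41.9% of all genes were higher in Natural and 42.8% in IVF), and 11 (Natural) and 10 (IVF) were lower. Fastkd1, whose family acts on mitochondrial RNA, was higher by 6.37 in Natural and 5.74 in IVF, and Hsd17b10, a subunit of the enzyme that trims mitochondrial transfer RNA, differed by -5.51 and -5.68. The third by size was Fastkd3 in Natural (4.74) and Supv3l1, an RNA helicase, in IVF (4.79).

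Against PGCs, 6 of the 7 genes other than ND3 were lower in 12-week oocytes of each group, where 39.4% (Natural) and 38.5% (IVF) of all genes fell. COX1 differed by -2.38 ± 0.38 in Natural and -3.27 ± 0.38 in IVF, and ND1 by -2.64 ± 0.39 and -3.64 ± 0.39. ND3 entered this joint fit only through the PGC libraries, where it was read at 27.1 to 93.6 CPM, so its difference from oocytes (0 to 1.23 CPM in Natural and 0.0434 to 2.15 CPM in IVF sets) is given by levels alone. ND2 was again the exception, at 0.26 ± 0.30 (edgeR, adjusted p = 0.44) and -0.44 ± 0.28 (adjusted p = 0.15), and it turned to -1.43 in Natural when scaled by library size alone, which moved the median of all genes from -0.17 to -1.87. Nuclear subunits were lower in oocytes for 54 of 57 in each group. In Natural mice they were led by Ndufb7 (-6.59), Cyc1 (-6.37) and Cox7c (-7.05), and in IVF mice by Ndufb7 (-6.70), Cyc1 (-6.91) and Cox7c (-6.92). Of the 29 tested genes for mitochondrial DNA expression 15 were lower and 7 higher in Natural oocytes, and 16 lower and 8 higher in IVF oocytes. Slirp, a mitochondrial RNA-binding protein, led those called at -5.32 and -5.12.

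Natural and IVF samples were next compared within each table. No tested member passed edgeR's threshold in any of the 6 comparisons, and the shares of counts overlapped in each. At E18.5 the share was 0.868%, 1.35%, 1.26% and 1.21% in Natural ovaries 1 to 4. In IVF ovaries 1 to 6 it was 1.27%, 1.43%, 0.470%, 1.19%, 1.44% and 1.13%. The single low library was IVF ovary 3, and without it the IVF mean was 1.29% ± 0.139 (n = 5). The means were 1.17% ± 0.211 (n = 4) and 1.16% ± 0.358 (n = 6; two-sided exact permutation test, p = 1).

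Among the 7 members tested at E18.5 (5.42% of 16415 tested genes were called), 0 were called by edgeR or DESeq2 and 0 had an unadjusted p under 0.05 in edgeR. Differences ran from -0.31 ± 0.26 for ND6 (edgeR, adjusted p = 0.49) to 0.15 ± 0.27 for ND5. The nuclear partners moved at this age: 20 of 57 nuclear subunits fell in IVF and 0 rose, where 2.74% of all genes fell. For complex I the count was 10 of 36, led by Ndufa5 (-0.75), Ndufs7 (-0.61) and Ndufb6 (-0.55). For complex III it was 2 of 9 (Uqcr10, -0.70, and Uqcrq, -0.68), and for complex IV 8 of 12, with Cox6c at -0.72, Cox7a2 at -0.60 and Cox8a at -0.59. Of the 29 tested genes for mitochondrial DNA expression 1 fell, Hsd17b10 (-0.41). The count of 20 ranged from 5 to 36 when single ovaries were left out, with 5 without Natural 2 or Natural 4, was 34 with DESeq2 and 13 when scaled by library size alone, and was 0 with the replicate number as a block, a fit that keeps only numbers present in both groups.

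Markers of other cells moved with these fetal groups. Erythroid markers summed to 584 to 1595 CPM in Natural and 1638 to 4597 CPM in IVF, with 2 of 6 called higher. Oocyte markers had a median difference of -2.14 with 2 of 9 called lower, and of the RNAs made by polymerase III 2 of 3 were called lower (15.2 to 449 CPM in Natural, 2.39 to 7.86 CPM in IVF). Of the other lists, 2 of 9 luteal and theca markers were called higher, 1 of 9 germ cell markers was called lower, and 0 of the granulosa, oviduct and immune markers were called. Their part in the result was not tested. The labels give E18.5 for both groups, while a passage of the methods gives E19.5 for IVF pregnancies delivered by cesarean section, and which day holds for these IVF fetuses is not settled by the sources used here.

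In 12-week ovaries the share was 2.03%, 2.37%, 2.05% and 2.57% in Natural and 2.43%, 1.95%, 2.57%, 1.80% and 2.86% in IVF. The means were 2.25% ± 0.261 (n = 4) and 2.32% ± 0.439 (n = 5; exact permutation test, p = 0.825). Differences of the 7 tested members lay between -0.04 (ND4) and 0.26 ± 0.22 (ND5; edgeR, adjusted p = 0.60), and 0 were called, with 0.00567% called among all genes. Of all genes 2532 had an unadjusted p under 0.05, none of them a member, and DESeq2 called 633 genes, again without a member.

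At 39 weeks the Natural ovaries spread widely. The share was 3.96%, 2.49%, 5.34%, 2.52% and 4.27% in Natural ovaries 1 to 5, and 2.69%, 2.77%, 1.88%, 2.42% and 2.91% in IVF ovaries 1 to 5. Natural 1, 3 and 5 lay above every IVF ovary, and Natural 2 and 4 lay among them. The means were 3.72% ± 1.22 (n = 5) and 2.53% ± 0.408 (n = 5), a difference of -1.18 percentage points (two-sided exact permutation test, p = 0.103, adjusted p = 0.619 over 6 comparisons).

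All 7 tested members were lower in IVF at 39 weeks, with a median difference of -0.68. edgeR called 0 of them (0.239% of 17186 genes were called). ND5, a proton-pumping subunit of complex I, came nearest. Its level was 4111, 3248, 5395, 3235 and 5138 CPM in Natural and 2363, 2884, 2019, 2632 and 3143 CPM in IVF, so every Natural ovary lay above every IVF ovary. How many of all genes separate in this way was not counted. The difference was -0.71 ± 0.22 (edgeR, adjusted p = 0.14), and ND5 was the 1 member that DESeq2 called (adjusted p = 0.028), among 1128 genes. ND2 differed by -0.82 ± 0.32 (edgeR, adjusted p = 0.21), CYTB by -0.69 ± 0.27 (adjusted p = 0.21) and ND6 by -0.59 ± 0.22 (adjusted p = 0.20), while ND1 differed least, by -0.33 ± 0.26 (adjusted p = 0.51). Of the nuclear subunits of the same complexes 0 were called by edgeR in this or any comparison of conception other than E18.5.

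Markers of other cells also differed among the 39-week ovaries. Luteal and theca markers summed to 36525, 24410, 31895, 23585 and 34716 CPM in Natural ovaries 1 to 5 and to 11660, 14904, 20616, 19290 and 27737 CPM in IVF ovaries 1 to 5, highest in the Natural ovaries 1, 3 and 5 that also held the highest mitochondrial shares. Below these the orders differed: IVF ovary 3 had the lowest share and more of these markers than IVF 1, 2 and 4. Of the 9 listed markers 0 were called by edgeR, with a median difference of -0.59. Granulosa and cumulus markers had a median difference of 0.96, with 9 of 11 higher in IVF and 0 called, and summed to 768 to 1933 CPM in Natural and 1278 to 3988 CPM in IVF. Oviduct markers reached 7498 CPM in IVF ovary 1 and at most 159.5 CPM elsewhere at this age. The part of these cells in the difference was not tested.

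The ovary was then followed over age in a joint fit of all 29 libraries over 19724 genes, in which each age is also its own table, so age and sequencing set cannot be told apart. From E18.5 to 12 weeks the share rose 1.92 times in Natural (exact permutation test, p = 0.0286, adjusted p = 0.0343) and 2.01 times in IVF (p = 0.00433, adjusted p = 0.0159), with no overlap of groups. In Natural ovaries 5 of 7 members rose (25.3% of all genes rose), led by COX1 at 1.21 ± 0.26, ND4 at 1.20 ± 0.31 and CYTB at 1.18 ± 0.28. ND5 (0.48 ± 0.27; edgeR, adjusted p = 0.15) and ND6 (0.57 ± 0.24; adjusted p = 0.054) did not pass. The Natural count was 3 without the 12-week Natural ovary 4 and 6 without the 12-week Natural ovary 3. In IVF ovaries 7 of 7 rose (30.8% of all genes), from 0.61 ± 0.23 for ND5 to 1.42 ± 0.26 for ND4. ND5 did not pass without IVF ovary 3 of E18.5 or without IVF ovary 1, 3 or 5 of 12 weeks, where the count was 6, nor when scaled by library size alone.

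Nuclear subunits rose over the same interval, 36 of 57 in Natural and 56 of 57 in IVF. Uqcrq of complex III led at 1.24 in Natural and 1.93 in IVF, with Ndufc1 (0.86) and Cox6a1 (0.68) leading the other complexes in Natural and Ndufs8 (1.52) and Cox6a1 (1.28) in IVF. Of the 29 tested genes for mitochondrial DNA expression 4 rose and 6 fell in Natural, and 11 rose and 2 fell in IVF (25.3% and 30.8% of all genes rose). Rexo2, an RNA-degrading enzyme of mitochondria, led those called at 1.00 and 1.27. Markers of the growing ovary changed as well: all 9 luteal and theca markers rose in each group, from 82.0 to 132 CPM in fetal ovaries to 11490 to 34075 CPM at 12 weeks. Of 9 tested germ cell markers 7 fell in each group, and the list summed to 272 to 887 CPM in fetal ovaries and 61.8 to 124 CPM at 12 weeks. Erythroid markers fell for 5 of 6 in Natural and 6 of 6 in IVF. Oocyte markers rose for 2 of 10 in Natural, with 1 lower, and for 9 of 10 in IVF. Of the 3 tested polymerase III RNAs 3 fell in Natural, and 1 rose in IVF. Granulosa markers rose for 6 and 9 of 12 with 1 lower in each group, oviduct markers rose for 5 of 8 in each with 1 lower in IVF, and immune markers rose for 4 of 6 in each. Their part in the members' rise was not tested.

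From 12 to 39 weeks 5 of 7 members rose in Natural ovaries (10.0% of all genes rose), with ND5 at 1.15 ± 0.27 (edgeR, adjusted p = 0.0039), ND2 at 1.19 ± 0.33 (adjusted p = 0.013), COX1 at 0.85 ± 0.25 (adjusted p = 0.015), CYTB at 0.80 ± 0.27 (adjusted p = 0.034) and ND4 at 0.85 ± 0.30 (adjusted p = 0.042). ND1 (0.67 ± 0.29, adjusted p = 0.10) and ND6 (0.48 ± 0.23, adjusted p = 0.14) did not pass. ND5 went from 1647, 2001, 2316 and 2394 CPM at 12 weeks to the 3235 to 5395 CPM given above. The count of 5 fell to 1 without the 39-week Natural ovary 3, and to 3 without any 1 of the 39-week Natural ovaries 1 and 5 or the 12-week Natural ovaries 1, 2 and 3. Scaled by library size alone the count was also 3. The share rose 1.65 times with overlapping groups (exact permutation test, p = 0.0476, adjusted p = 0.0519).

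In IVF ovaries edgeR called 0 of 7 members between 12 and 39 weeks (6.24% of all genes were called) and 0 had an unadjusted p under 0.05, with differences from -0.13 ± 0.22 for ND6 to 0.40 ± 0.23 for COX1 (edgeR, adjusted p = 0.33). Their share went from 2.32% ± 0.439 (n = 5) to 2.53% ± 0.408 (n = 5; exact permutation test, p = 0.444). The test of the difference between these age changes called 0 of 7 (2.40% of all genes were called), with IVF minus Natural values from -0.41 ± 0.40 for ND1 to -0.97 ± 0.36 for ND5 (edgeR, adjusted p = 0.12). A different age course in IVF was thus not shown for any member. Nuclear subunits did not follow: 0 of 57 rose and 2 fell in each group, where 11.5% (Natural) and 1.98% (IVF) of all genes fell. These were Ndufc2 (-0.42) and Cox7a2l (-0.37) in Natural and Ndufa4 (-0.51) and Cox6c (-0.47) in IVF. Of the genes for mitochondrial DNA expression, Polg (0.35) rose and Rexo2 (-0.43) fell in Natural, and Peo1 (0.49), the helicase of mitochondrial DNA, rose while Ssbp1 (-0.64) and Fastk (-0.35) fell in IVF.

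Other markers moved over this interval in Natural ovaries. Oviduct markers went from 3010 to 7153 CPM at 12 weeks to 17.6 to 159.5 CPM at 39 weeks, with 7 of 8 called lower. Luteal and theca markers went from 14396 to 26798 CPM to 23585 to 36525 CPM, with 2 of 9 called higher, and erythroid markers were called higher for 4 of 6. In IVF ovaries 0 markers of these 3 lists were called by edgeR. Of granulosa markers 2 of 12 fell in Natural and 1 in IVF, and of 6 immune markers 0 were called in Natural and 1 rose in IVF. Their part in the members' rise was not tested.

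**Figure D3:**
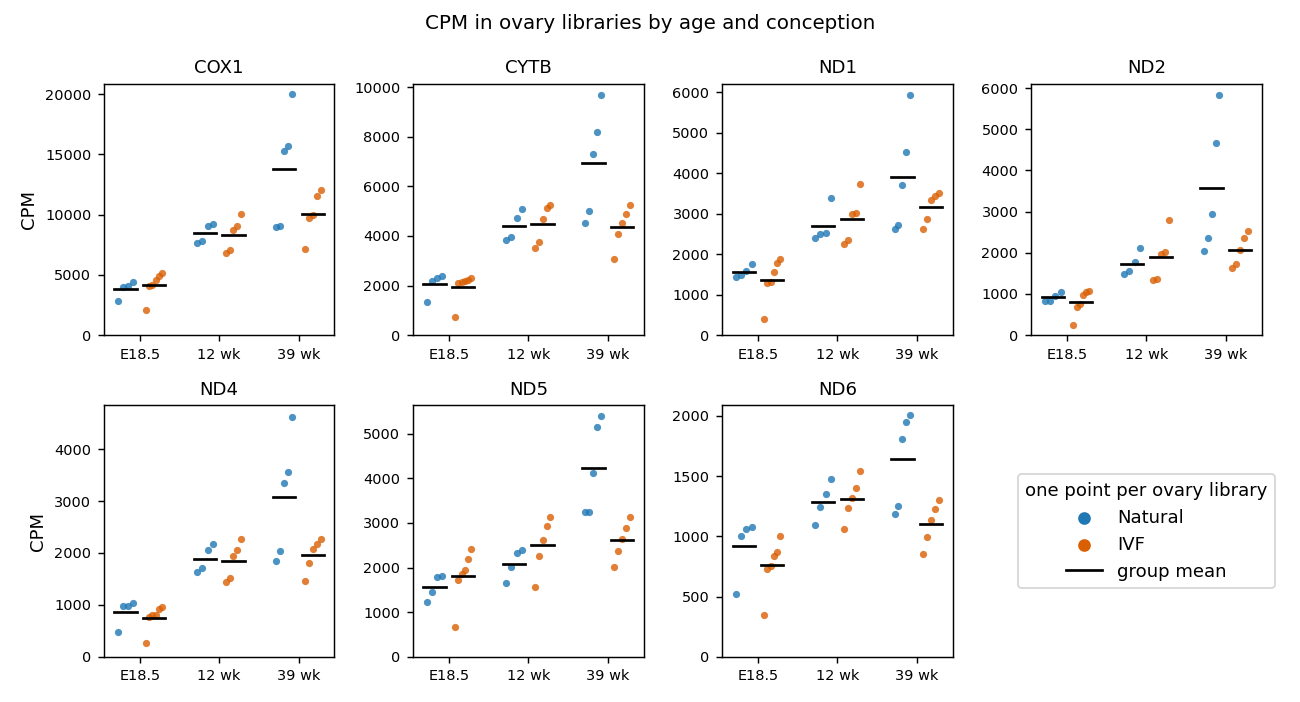
CPM of the 7 members read in fetal ovaries (E18.5) and adult ovaries (12 or 39 weeks), each point an ovary library and each horizontal bar a group mean. The 39-week Natural ovaries 1, 3 and 5 lie above all other ovaries for every member shown except ND1.

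Across the 29 ovaries the members followed the summed share closely. Spearman's rho with it was 0.93 for COX1, 0.91 for ND1, 0.88 for ND2, 0.87 for ND5, 0.84 for ND4, 0.81 for CYTB and 0.79 for ND6, each of which is a part of that sum. Outside the list the closest of 11223 genes were Csrnp1 (0.78), Ak3 (0.71), which encodes an adenylate kinase of mitochondria, Prdx1 (0.70) and Gpx1 (0.69), which encode peroxide-removing enzymes, and Runx3 (0.69). The mean of each group of age and conception had been removed from gene and share before ranking. Libraries of a group still share a table, and the values are a description.

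PGCs at E13.5 gave higher means in IVF through 1 library. COX1 was 30032, 22729.8, 27943 and 20214 CPM in Natural PGC libraries 1 to 4. In IVF libraries 1 to 5 it was 23319.6, 63047, 26884, 23399 and 18827 CPM. IVF library 2 was far above the rest and had a share of 16.0%, against 4.61% to 6.95% in the other 8 libraries. Mean shares were 5.90% ± 1.12 (n = 4) and 8.00% ± 4.56 (n = 5; two-sided exact permutation test, p = 0.476), and without IVF library 2 the IVF mean was 5.99% ± 0.890 (n = 4). All 8 members were tested, with differences from 0.20 to 0.50, and 0 were called. edgeR and DESeq2 called 0 genes of any kind here (0% of 12763), with 344 genes at an unadjusted p under 0.05 in edgeR, none of them a member, and 665 in DESeq2.

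Cumulus cells were compared with the library set in the model. Differences lay between -0.33 ± 0.18 for ND1 (edgeR, adjusted p = 0.87) and 0.14 ± 0.17 for COX1, and 0 of 7 members were called by edgeR (0.0195% of all genes) or DESeq2, with 0 at an unadjusted p under 0.05. ND1 in the GC libraries was 3736, 5935 and 5179 CPM in Natural and 3481, 3001 and 2890 CPM in IVF, so these did not overlap. In the numbered libraries it was 3318 and 3017 CPM in Natural and 3669 and 4014 CPM in IVF, in the opposite order. The mean share was 2.99% ± 0.546 (n = 5) in Natural and 3.20% ± 0.821 (n = 5) in IVF (exact permutation test, p = 0.619). Within the sets it was 2.23% to 2.87% against 2.36% to 2.88% in GC libraries, and 3.49% to 3.55% against 3.75% to 4.34% in numbered ones. Permuted within the sets, the difference was 0.259 percentage points (exact permutation test, p = 0.317). The name of Natural cumulus library 5 shares its numbers with an IVF oocyte set, and without this library the pooled difference was 0.162 percentage points, against 0.206 with it.

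**Figure D4:**
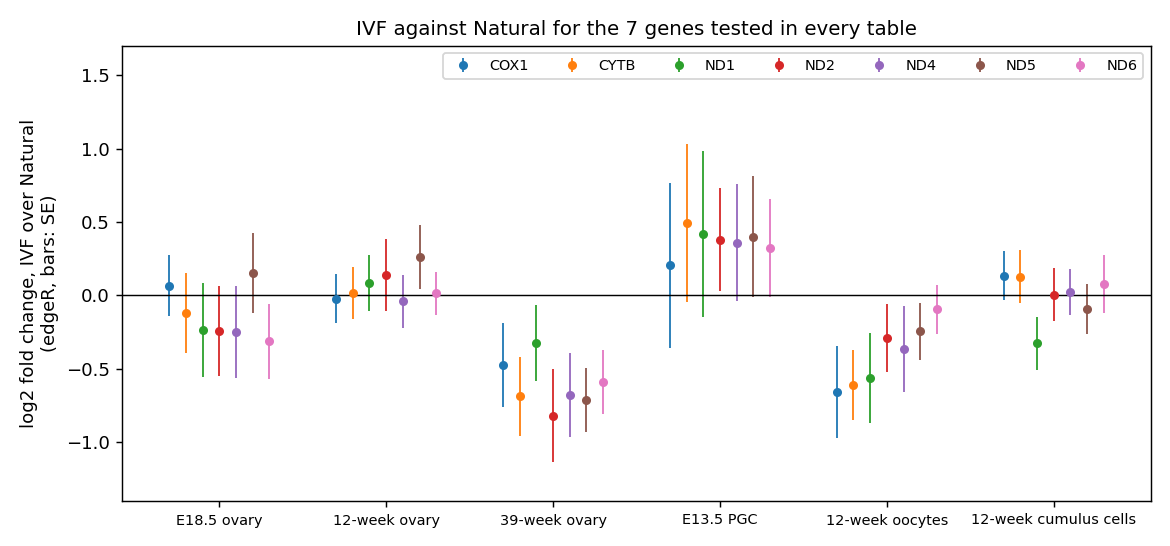
edgeR log2 difference, IVF minus Natural, of the 7 members tested in all 6 comparisons, with bars of 1 SE and a line at 0. All 7 lie below 0 in 39-week ovaries and in 12-week oocytes and above 0 in PGCs, and 0 passed an adjusted p of 0.05 in edgeR.

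In 12-week oocytes the donor sets overlapped. The share was 0.492%, 0.544%, 0.273%, 0.313% and 0.614% in Natural sets 35_1, 35_3, 92_3, 92_4 and 92_5. In IVF sets 126_2, 126_3, 126_4, 127_2 and 127_3 it was 0.334%, 0.272%, 0.527%, 0.222% and 0.316%. Natural 35_1, 35_3 and 92_5 and IVF 126_4 were the high sets. The means were 0.447% ± 0.148 (n = 5) and 0.334% ± 0.116 (n = 5; two-sided exact permutation test, p = 0.230, adjusted p = 0.690). Since the leading numbers of the names never occur in both groups, conception and whatever these numbers mark cannot be told apart.

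By gene, edgeR and DESeq2 called 0 of 8 in oocytes (edgeR called 0.0138% of all genes), and 7 of 8 were lower in IVF. CYTB differed by -0.61 ± 0.24 (edgeR, adjusted p = 0.73), COX1 by -0.66 ± 0.31 (adjusted p = 0.78), ND1 by -0.56 ± 0.31 and ND6 by -0.09 ± 0.17. CYTB was 1761, 2201, 848, 1072 and 1630.5 CPM in the Natural sets and 1169, 991, 1546, 803 and 950.1 CPM in the IVF sets. ND3 was higher in IVF by 1.24 ± 1.21 (adjusted p = 0.91), at 0 to 1.23 CPM in Natural and 0.0434 to 2.15 CPM in IVF sets.

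Single oocytes of 12 weeks ranged from 0.121% to 3.68%. Of the 76, 7 held 1% or more, and all 7 were among the 10 oocytes whose oocyte markers, such as the zona pellucida genes, summed to under 10000 CPM. Those 10 had marker sums of 1789 to 8181 CPM and mitochondrial shares of 0.280% to 3.68%, from totals of 839781 to 4991194 counts. The other 66 had marker sums of 17547 to 39352 CPM and shares of 0.121% to 0.788%, with a median of 0.295%. Granulosa markers were at 27.5 to 149 CPM in the 10 and 32.2 to 491 CPM in the rest. Without the 10, a choice made after seeing the data, the share of set 126_4 went from 0.527% to 0.238% and that of 35_3 from 0.544% to 0.314%, and the difference between groups was -0.0983 percentage points (exact permutation test, p = 0.198).

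**Figure D5:**
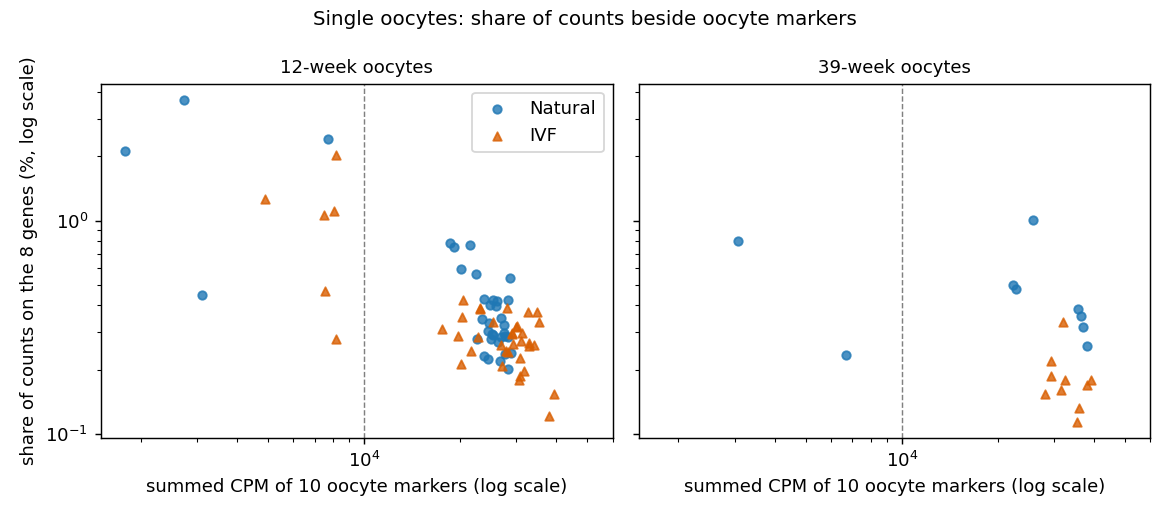
Percentage of counts on the 8 genes against the summed CPM of oocyte markers in single oocytes of 12 and 39 weeks (both axes logarithmic, 1 point an oocyte), with a dashed line at 10000 CPM. All 7 oocytes of 12 weeks at 1% or more lie under 10000 CPM of markers. At 39 weeks the highest share (1.00%, Natural oocyte 4) lies above the line, at 25724 CPM of markers. Under the line lie Natural oocyte 6 (0.799%) and Natural oocyte 9 (0.234%).

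Over the 76 oocytes Spearman's rho with the summed share was 0.86 for ND4, ND1 and CYTB, 0.83 for ND5, 0.81 for COX1 and ND2, and 0.68 for ND6. The closest of 5833 genes outside the list were Omt2a (0.74), an oocyte gene, Zfp706 (0.71), Desi2 (0.71), Tpd52 (0.70) and Kpna3 (0.70). The mean of each donor set had been removed before ranking. Oocytes of a set share a name and depth differs among them, so the values are a description.

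For 39-week oocytes the labels name no donor, so each group counts as 1 sample and there is no test. The 9 Natural oocytes held a median share of 0.384%, from 0.234% to 1.00%. The 10 IVF oocytes held a median of 0.174%, from 0.114% to 0.336%. The groups overlapped through IVF oocyte 7, the shallowest at 2820748 counts, which lay above Natural oocytes 2, 7 and 9. Depth also differed: totals were 5959480 to 18374296 counts in Natural oocytes and 13567964 to 31126357 in the other IVF oocytes. The part of depth in the shares was not tested. Pooled over oocytes the share was 0.431% in Natural (exact 95% binomial interval 0.430% to 0.432%) and 0.172% in IVF (0.171% to 0.172%), a ratio of 0.398. These intervals cover counting error only, and reads are not independent molecules.

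All members but ND3 were past a 1.5-fold difference in the pooled counts at 39 weeks, each lower in IVF, where 25.8% of 7926 genes were past it on that side. The IVF level of ND1 was 0.245 times the Natural level (174 against 711 CPM), that of ND2 0.314 times and of ND5 0.329 times. The ratio was 0.392 for COX1 (577 against 1474 CPM) and 0.557 for CYTB (649 against 1166 CPM). ND3 was read in 4 Natural oocytes and 1 IVF oocyte, with at most 7 reads. Natural oocytes 6 and 9 had oocyte markers of 3063 and 6700 CPM, against 22272 to 39003 CPM in the others. Without them, a choice made after seeing the data, the pooled Natural share was 0.420% and the ratio 0.409, the same 7 members were past 1.5-fold, and the background fell to 7.90%.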

How the data were processed

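RNA-seq libraries (143 of the 151 samples in the labels) were analysed from 7 tables of read counts per gene. Cumulus cells at 39 weeks were not analysed here. The counts are whole numbers that the authors deposited without normalization. Per the labels, the processing used Trimmomatic (0.32), STAR (2.3.0e), featureCounts (1.5.0), DESeq2 and the mouse build mm10. The paper names trimgalore, STAR and featureCounts for low-input reads. The treatment of reads with several matches and of strand is not given in the sources used here. Sequences came from GENCODE transcripts for GRCm38, and only annotated transcripts were searched for copies.

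CPM is counts over the library total, and the share is the sum of the 8 genes over that total. Gene tests used edgeR (4.0.16) in R (4.3.3) on whole tables: TMM scaling, filterByExpr, a robust quasi-likelihood model and a threshold of 0.05 on p adjusted by Benjamini-Hochberg. DESeq2 (1.42.0) was the alternative tool. Shares were compared with exact permutation tests of the mean difference (scipy 1.17.1), adjusted over 6 comparisons of conception and 12 between kinds. Donor sets of 12-week oocytes were read from library names and their counts summed. Numbered cumulus columns matched more than 1 record each and entered as replicates of their group. The source field of Natural 39-week ovary 5 gives 40 weeks. The methods describe the ovaries as individuals of different litters, although they allow littermates in the adult cohorts, so adult ovaries may include some. Where no source says that low-input samples are separate animals, p-values measure only the spread between these samples, which may be technical.

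ND3 passed the filter in PGCs, 12-week oocytes and the low-input joint fit, and the other 7 members passed everywhere. Gene lists covered nuclear subunits of complexes I, III and IV, mitochondrial DNA expression and markers of other cells. List genes were named from the 3 called genes with the largest change in each list. Genes outside the list were named by Spearman's rho of log2 CPM (prior count 2) with the summed share, 5 over the ovaries and 5 over single 12-week oocytes after removing group or set means, among genes with a mean of at least 10 CPM. The 8 genes and the lists were chosen with earlier results of these data known. Replicate numbers were not taken to pair samples, since in no table was every pair's correlation of deviations over 0.1, although 3 of 4 pairs were in PGCs (0.28 to 0.54) and 3 of 5 in 39-week ovaries (0.20 to 0.40). The correlations ran from -0.36 to 0.25 in 12-week ovaries, from -0.13 to 0.01 at E18.5, from -0.01 to 0.40 at 39 weeks and from -0.07 to 0.54 in PGCs. Gene tests and share tests were tried on simulated data first. Alternatives covered scaling, the filter, DESeq2, the replicate block, units of oocytes and each left-out library. Depth limits ND3, whose reads were few outside PGCs.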

Additional observations from a re-analysis of the deposited data

Results flagged for a closer look

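The highest or lowest sample of a group of 4 to 10 was called set apart where its gap to the nearest sample, relative to the range of the group, passed Dixon's criterion at 5%. Of 114 groups tested 27 passed, where chance alone passes about 5%, and members of a library are not independent of each other.

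IVF PGC library 2 stood above the other 4 for the share of counts (16.0%) and for COX1 (63047 CPM), CYTB (43275), ND1 (39028), ND3 (93.6), ND4 (5923) and ND5 (7359). IVF fetal ovary 3 stood below the other 5 for the share (0.470%), COX1 (2044 CPM), CYTB (725) and ND4 (262). Natural fetal ovary 1 was the lowest of 4 for ND4 (484 CPM) and ND6 (525). Among 12-week ovaries Natural 4 was the highest for ND1 (3385 CPM).

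Among 39-week oocytes IVF oocyte 7, the shallowest, stood highest for the share (0.336%), COX1 (1444 CPM), ND1 (505) and ND6 (43.6). Natural oocyte 4 stood highest for ND1 (2807 CPM), ND2 (1178), ND5 (1392) and ND6 (112), and Natural oocyte 6, with low oocyte markers, for CYTB (2518). Of the 12-week donor sets, IVF 126_4 stood highest for COX1 (2016 CPM) and ND4 (474), and Natural 92_5 for ND1 (1277). Natural cumulus library 3 stood lowest for COX1 (9601 CPM).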

How the results depend on the processing

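Of 105 main values of the comparisons under settings other than leaving out each library in turn, 102 were held as the same. Some of these values are counts of members called, and a small change in a count was held as the same. With single libraries left out, for example, the IVF count from E18.5 to 12 weeks was held as the same at 6 and at 7. By gene, under the other settings, 385 values kept sign and side of the threshold, 13 changed sign, 6 gained a call and 4 lost one. DESeq2 called 1 member in 39-week ovaries, ND5, against 0 by edgeR. Library size alone gave 3 members that rose from 12 to 39 weeks in Natural ovaries. The replicate block gave a share difference of -0.0653 percentage points in 12-week ovaries, the value also found by leaving out IVF ovary 5, which has no partner and so drops from the block. The blocked share was not called in the other ovaries (39 weeks, -1.18, exact permutation within pairs, p = 0.188) or in PGCs. With only 4 or 5 pairs this blocked test cannot give a p under 0.05, so its missing calls decide nothing. The numbers did not meet the rule for pairing, and the block, which drops unpartnered libraries, moved the calls over all genes from 890 to 3 at E18.5 and from 41 to 22 at 39 weeks. No paired analysis was possible for oocytes or cumulus cells between conceptions because no donor set occurs in both groups of either cell type, although the leading number 126 occurs in both cumulus groups through Natural library 5. With donors as a block over both conceptions (5 sets), 6 members fell in oocytes against cumulus cells. Calls over all genes by DESeq2 were 1856 at E18.5, 633 and 1128 in 12-week and 39-week ovaries, 55 in oocytes and 31 in cumulus cells. In PGCs the count was 0 with and without the block. The calls of library size alone were 68 at 39 weeks, 3 in cumulus cells and 1 in oocytes. From 12 to 39 weeks in Natural ovaries that scaling called 1251 genes higher and 2989 lower, against 1977 and 2266, and at E18.5 it called 552 higher and 321 lower, against 441 and 449. In IVF ovaries from 12 to 39 weeks it called 269 higher and 703 lower, against 840 and 391, and for oocytes against PGCs 3374 and 9171 in Natural, against 5900 and 6216, and 3656 and 8893 in IVF, against 6115 and 6077. Other counts were 6, 62 and 4 without the filter in 12-week ovaries, cumulus cells and oocytes, 0 in cumulus cells with no library set, and 5 in oocytes summed by the first number of the name.

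Changes of sign were small except that of ND2 for Natural oocytes against PGCs, and the cause was not tested. With the replicate block, at E18.5 COX1 was at -0.049 and ND5 at -0.041, and at 12 weeks CYTB was at -0.097, ND1 at -0.070, ND2 at -0.10 and ND6 at -0.053. Without the filter, 12-week ovaries gave CYTB -0.021 and ND6 -0.019, and cumulus cells ND2 -0.012. In oocytes ND6 was at 0.047 with library size alone and at 0.0088 without the oocytes of low markers. Library size alone gave CYTB -0.030 from 12 to 39 weeks in IVF and ND2 -1.43 for Natural oocytes against PGCs.

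With each library left out, the Natural count of members that rose was 3 to 6 from E18.5 to 12 weeks and 1 to 5 from 12 to 39 weeks. Share differences ran from -0.118 to 0.121 at E18.5, -0.0653 to 0.198 in 12-week ovaries and -0.0786 to 0.416 in cumulus cells. For Natural ovaries they ran from 0.977 to 1.16 from E18.5 to 12 weeks, where fewer samples allow no call, and from 1.05 to 1.77 from 12 to 39 weeks. The latter passed without 12-week Natural ovary 4. By gene, E18.5 ovaries gave COX1 -0.049 to 0.20 and CYTB -0.28 to 0.049. In 12-week ovaries the ranges were -0.13 to 0.046 for COX1, -0.083 to 0.094 for CYTB, -0.066 to 0.19 for ND1, -0.081 to 0.25 for ND2, -0.16 to 0.042 for ND4 and -0.062 to 0.088 for ND6. PGCs gave COX1 -0.16 to 0.45 and ND3 -0.17 to 0.54, with the low ends without IVF library 2, and oocytes ND6 -0.18 to 0.0013. Cumulus cells gave ND2 -0.13 to 0.12, ND4 -0.035 to 0.087, ND5 -0.16 to 0.024 and ND6 -0.063 to 0.28. The dependence of the oocyte to cumulus difference on conception ran from -0.36 to 0.092 for ND1 and -0.63 to 0.25 for ND6.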
